A study of Mus musculus with 36 samples.

Results

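The T cell receptor, its CD3 signalling chains and the coreceptors CD4 and CD8 were followed through the RNA of their 10 genes in mouse CD4 T cells. The genes were Cd3d, Cd3e, Cd3g, Cd247, Trac, Trbc1, Trbc2, Cd4, Cd8a and Cd8b1, chosen by symbol, with earlier results of these data known. All 10 were found among the 45706 genes counted in each of 36 libraries.

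An alpha and a beta chain, each made of a variable part joined to a constant part, bind antigen, while the CD3 gamma, delta, epsilon and zeta chains that travel with them to the cell surface carry the signal inward. CD4 and CD8 bind the major histocompatibility molecules beside the receptor and bring the kinase Lck to it, and mature T cells of the alpha-beta kind normally keep only one of the pair. Stimulated T cells are known to internalise and degrade part of their surface receptor, so the supply of these RNAs is of interest in cells cultured on an antibody against CD3, with which the labels say that plates for polarisation were coated.

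The mutant mice were of the strain C57BL/6J-Ets1-SE-KO (KO); the strain name points to the loss of an Ets1 super-enhancer, and Ets1 is a transcription factor gene active in T cells. The other mice were C57BL/6J (WT). Cells came from spleen, and naive CD4 T cells were enriched by beads that remove other cells. Naive cells gave 2 KO and 2 WT libraries. Th1 cells grew with IL-12, IL-2 and soluble anti-CD28, while the sources used here do not describe the Th2 medium. Each of these fates gave 3 KO and 3 WT libraries. A second Th1 experiment gave 4 libraries of KO cells given an Ets1 retrovirus (Ets1-RV), 2 untransduced KO libraries, 4 libraries of WT cells given the empty virus (EV) and 2 untransduced WT libraries. There, libraries with the same B number of their title were summed, so n = 2 in each group. All naive libraries and all libraries of the first Th1 and Th2 cultures have B number 1 and differ in their T number alone. Summed by the same rule they would leave n = 1 in each group and no test, and they were tested as separate libraries. The labels give no coordinates of the deletion and no age, sex or number of mice, do not say which cells of a transduced culture carried the virus, and do not say that libraries of a group came from separate mice or cultures. The p-values therefore measure the spread between libraries, which may be technical, and those of the naive set and the first cultures compare libraries of 1 B number. Counts of the naive WT pair differed by a chi-square per degree of freedom of 1.92, against 1.26 to 1.94 for pairs that share a B number in the second experiment; the naive KO pair had 4.34 and pairs of the first cultures 2.27 to 7.22. A further 8 libraries, whose title and transduction label name different viruses, entered no comparison.

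Libraries of naive cells held 5069623 to 5852673 gene counts, those of the first helper cultures 7311614 to 10256407, and those of the second Th1 experiment that have a group 1813288 to 6844944. Gm27162, a noncoding gene downstream of Ets1 on chromosome 9, was at 0 counts in all KO libraries that have a group and had 8 to 53 counts in WT libraries. The genotypes of the naive set differed in sex-linked RNA: Xist had no count in both KO libraries, against 466 and 498 raw CPM (counts scaled to a common library total) in WT, and Y-linked genes summed to 257 and 284 CPM in KO, against 1.03 and 0.854 CPM in WT. In naive cells genotype and sex therefore cannot be told apart. All 12 libraries of the first Th1 and Th2 cultures had Xist RNA with Y-linked RNA of at most 0.105 CPM, and in the second experiment both genotypes had 1 B number with Y-linked RNA and 1 with Xist RNA.

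In naive cells the 5 CD4 T cell markers, which include Cd4 and Cd3e, summed to 1747 ± 5.72 CPM in KO and 1646 ± 14.7 CPM in WT (mean ± SD, n = 2 each; CPM are scaled by TMM factors here and below unless called raw). Cd8a, which encodes the chain that every CD8 receptor needs, had 0 to 19 counts in each of the 28 libraries that have a group. Markers of other cells differed between the naive genotypes. The B cell list summed to 201 ± 2.64 CPM in KO and 289 ± 2.08 CPM in WT, with both tested genes of its 6 lower in KO, and the erythroid list to 6.57 ± 1.63 CPM and 21.6 ± 0.707 CPM, with all 3 tested of its 4 lower. The thymocyte list summed to 26.3 ± 0.0352 CPM in KO and 8.75 ± 1.36 CPM in WT, and both of its 5 genes that were tested were higher; these were Dntt and Cd1d1, while Rag1, Rag2 and Ptcra were at 0 in all 4 libraries. Myeloid markers summed to 16.2 and 19.6 CPM in KO and 17.9 and 22.1 CPM in WT. What part these differences had in the results on naive cells was not tested.

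Cd3g (minus strand, 44969572 to 44980431), Cd3d (plus strand, 44981786 to 44987339) and Cd3e (minus strand, 44998740 to 45009627) lie side by side on chromosome 9 of GRCm38, 12.2 Mb beyond the end of Ets1 on the same chromosome. Cd247, the gene of the zeta chain, lies on chromosome 1 (plus strand, 165788681 to 165877277). Its span overlaps 6 genes, among them Pou2f1 on the other strand and Gm16565, which lies on the same strand and spans the start of Cd247 (165781075 to 165789367; 984 counts over all libraries), so reads of the shared stretch cannot be assigned for certain. Trac is on chromosome 14 (54220521 to 54224206), and Trbc1 (41538218 to 41539881), Trbc2 (41546730 to 41548352), Cd8b1 (71322788 to 71337494) and Cd8a (71373427 to 71379173) are on the plus strand of chromosome 6, and Cd4 is on its minus strand (124864692 to 124888221). The promoters of Cd247 and of the 3 CD3 genes are shown because these genes rose together in naive KO cells, in which Ets1 RNA was low. Each holds 250 bases before and 50 after the start of transcription in RefSeq (GRCm38.p6), read on the gene's own strand, with the Ets motif AGGAAGT, on either strand, in capitals. The windows are chr1:165788431-165788730 for Cd247, chr9:44981536-44981835 for Cd3d, chr9:45009562-45009861 for Cd3e and chr9:44980382-44980681 for Cd3g.
Cd247: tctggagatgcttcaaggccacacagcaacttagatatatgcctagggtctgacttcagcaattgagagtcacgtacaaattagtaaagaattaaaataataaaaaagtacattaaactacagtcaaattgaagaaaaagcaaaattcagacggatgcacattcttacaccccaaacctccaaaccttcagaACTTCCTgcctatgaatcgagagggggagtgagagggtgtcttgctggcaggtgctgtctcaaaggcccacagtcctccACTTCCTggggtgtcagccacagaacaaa
Cd3d: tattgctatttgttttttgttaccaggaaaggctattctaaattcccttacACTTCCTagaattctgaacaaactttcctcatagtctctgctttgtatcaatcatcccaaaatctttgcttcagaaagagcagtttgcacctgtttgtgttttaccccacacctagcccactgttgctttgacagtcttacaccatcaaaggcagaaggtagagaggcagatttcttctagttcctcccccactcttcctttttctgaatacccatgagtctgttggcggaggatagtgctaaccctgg
Cd3e: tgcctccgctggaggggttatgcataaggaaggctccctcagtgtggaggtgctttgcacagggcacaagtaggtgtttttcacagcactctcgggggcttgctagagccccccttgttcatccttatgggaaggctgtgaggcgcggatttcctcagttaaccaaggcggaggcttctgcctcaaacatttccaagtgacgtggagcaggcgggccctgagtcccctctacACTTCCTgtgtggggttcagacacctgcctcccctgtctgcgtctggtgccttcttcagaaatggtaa
Cd3g: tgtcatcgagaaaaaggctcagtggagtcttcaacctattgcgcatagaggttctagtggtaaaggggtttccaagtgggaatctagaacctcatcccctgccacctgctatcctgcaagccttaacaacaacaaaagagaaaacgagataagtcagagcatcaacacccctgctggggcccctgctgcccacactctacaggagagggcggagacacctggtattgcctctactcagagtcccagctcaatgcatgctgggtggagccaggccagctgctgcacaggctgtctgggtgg
The motif was present in 9.35% of 32851 mouse promoters of this length, and 0.645% held it more than once. Cd247 held 2 copies, which began at position -58 and at position 22 counted from 1 at the start. Cd3d held 1 at position -199 and Cd3e 1 at position -18, all on the opposite strand, where the motif reads ACTTCCT. The Cd3g window held no such letters. The promoter window of Cd8a, the one other member with a RefSeq promoter at hand, held none either. The shorter core GGAA occurred in 96.0% of all promoters and in each of the 5 windows. A match is a description of the sequence, not evidence of binding.

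Within each genotype, naive cells had the highest mean of 9 of the 10 genes, all but Cd8a. Per kilobase of summed exon length, Trac stood highest in 9 of the 10 groups and second to Cd4 in WT Th2 cells. It had 455 CPM per kb in naive KO and 420 CPM per kb in naive WT cells. Cd3g followed with 285 and 223 CPM per kb, then Trbc2 with 237 and 182. Cd4 had 173 CPM per kb in naive KO and 176 in naive WT cells, and Trbc1 167 and 141. Cd3e (117 and 100), Cd3d (111 and 81.9) and Cd247 (118 and 71.5 CPM per kb) formed the lower end of the receptor chains. Cd247 was thus the lowest of the CD3 chains in naive WT cells, but stood beside Cd3e in naive KO cells. Cd8b1 had 24.0 CPM per kb in naive KO and 11.2 in naive WT cells, and Cd8a 0.129 and 0.364. In Th1 cells Cd4 moved to second place behind Trac, with 104 CPM per kb in KO and 121 in WT.

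**Figure D1:**
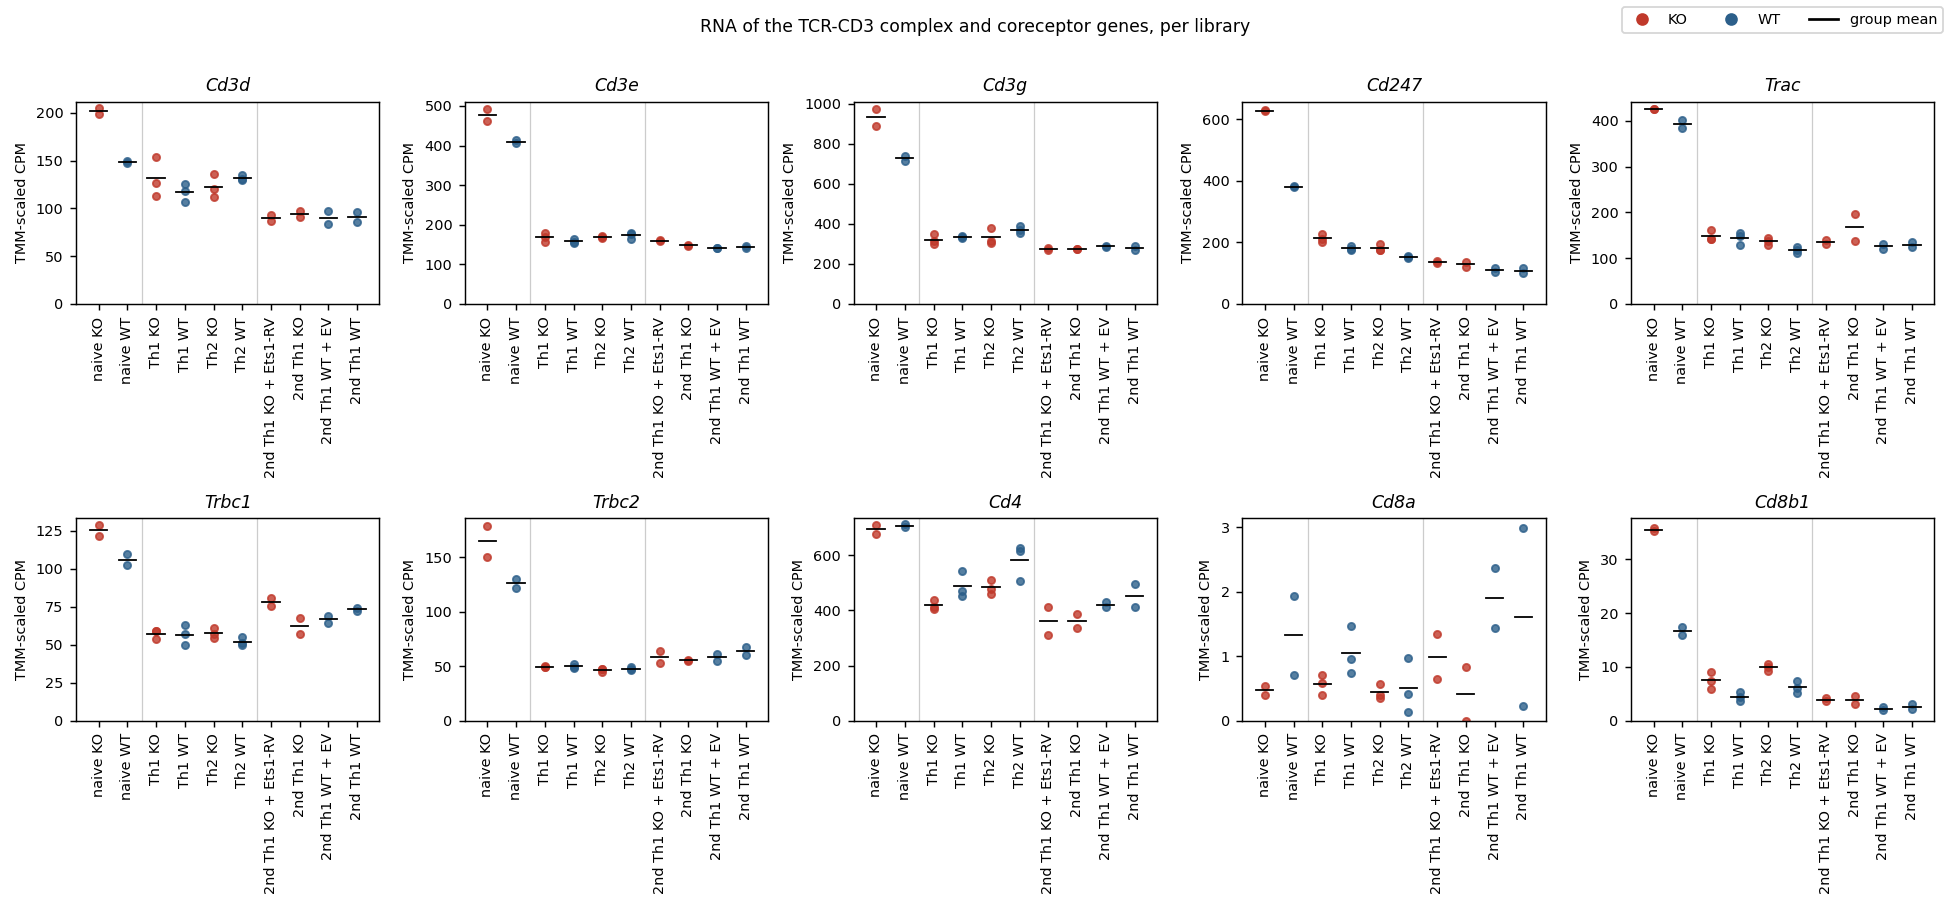
TMM-scaled CPM (vertical axis, from 0) of each of the 10 genes in the 10 groups, with KO in red and WT in blue; points are libraries (sums of libraries with the same B number in the 3rd block, the second Th1 experiment, which was scaled on its own) and bars are means. Every gene except Cd8a is highest in naive cells, and Cd247 shows the widest gap in CPM between naive KO (626 and 629 CPM) and naive WT cells (380 and 382 CPM).

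In naive cells the question is what the KO goes with before any culture. RNA of most receptor chains was higher in naive KO than in naive WT cells, while RNA of Cd4 and of the alpha constant gene did not pass the test. Of the 10 genes 9 had enough counts to be tested, and 7 rose and none fell. Over all 11246 genes tested, 17.7% were called in either direction and 8.75% were called higher. The median log2 fold change was 0.36 for the 9 genes and 0.00 for all genes. Tests throughout are edgeR's quasi-likelihood test with adjustment over all genes tested.

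Cd247 encodes the zeta chain, which carries more phosphorylation motifs than any other chain of the complex and is known to limit how much receptor is assembled. Its level was 629 and 626 CPM in naive KO libraries, against 382 and 380 CPM in naive WT libraries. The log2 fold change was 0.73 (SE 0.0605, 95% interval 0.61 to 0.84, adjusted p = 5.81e-27), and the 2 libraries of a genotype lay close together. It kept its call under all 11 alternatives, with log2 fold changes of 0.71 to 0.75. In bulk RNA, fewer cells of a type and less RNA per cell cannot be told apart, so Cd247 was also set against Cd4 in the same library. There were 0.884 and 0.921 Cd247 counts per Cd4 count in naive KO, against 0.535 and 0.541 in naive WT cells.

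The 3 CD3 genes on chromosome 9 also rose in naive KO cells, each by less than Cd247. Cd3d, the gene of the delta chain, had 205 and 198 CPM in KO and 148 and 150 CPM in WT (log2 fold change 0.45, SE 0.0759, adjusted p = 2.31e-07). Cd3g, the gene of the gamma chain, had 975 and 890 CPM in KO and 714 and 741 CPM in WT (0.36, SE 0.0567, adjusted p = 1.44e-08). The groups did not overlap for either gene, and both calls held without any 1 library. Cd3e, whose product pairs with both other chains, had 493 and 463 CPM in KO and 413 and 406 CPM in WT (0.23, SE 0.0613, adjusted p = 0.00269). The Cd3e call was lost under 4 alternatives: the adjusted p was 0.115 when KO library 1 was left out, 0.099 for WT library 1, 0.16 for WT library 2, and 0.0739 in a joint fit with the helper cells.

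Of the constant genes of the antigen-binding chains, those of the beta chain rose and that of the alpha chain did not pass the test. Trbc2 had 150 and 179 CPM in naive KO libraries and 130 and 121 CPM in naive WT libraries (log2 fold change 0.39, SE 0.0813, adjusted p = 3.95e-05). The KO libraries lay apart from each other but above both WT libraries, and without KO library 2 the call was lost (0.27, adjusted p = 0.181). Trbc1 had 129 and 121 CPM in KO and 102 and 109 CPM in WT (0.24, SE 0.0882, adjusted p = 0.0359), and this call was lost without any 1 of the 4 libraries (adjusted p of 0.276 and 0.157 without KO library 1 or 2, 0.34 and 0.113 without WT library 1 or 2) and with DESeq2 (0.331), no filter (0.0824), counts without strand (0.0886), the replicate block (0.057) or the joint fit (0.167). Trbc1 and Trbc2 share long identical stretches: 43.2% of the 38-base windows of Trbc1 and 46.9% of those of Trbc2 occur in the other gene, so the split of reads between them is uncertain. Trac had 426 and 425 CPM in KO and 401 and 384 CPM in WT (0.12, SE 0.062, 95% interval -0.00 to 0.24, adjusted p = 0.18).

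The variable segments, which code for the antigen-binding ends, were counted as genes of their own. Beta variable segments summed to 310 ± 22.2 CPM in naive KO and 213 ± 0.549 CPM in naive WT cells (n = 2 each), and 6 of the 18 tested rose and none fell, where 8.75% of all genes were called higher. Trbv15 was the highest of these by fold change, with 53.6 ± 3.08 CPM in KO and 28.5 ± 2.57 CPM in WT (log2 fold change 0.91, SE 0.137, adjusted p = 2.93e-09), followed by Trbv13-2 (0.74), Trbv1 (0.71) and Trbv2 (0.69). The median over the beta segments tested was 0.60. Alpha variable segments summed to 136 ± 4.36 CPM in KO and 124 ± 5.75 CPM in WT, and 1 of 29 tested rose, a share below that of all genes, and none fell, with a median of 0.16. Reads of closely related segments can be split or lost in counting.

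Cd4, the gene of the coreceptor that defines these cells, did not pass the test between the naive genotypes. It had 712 and 679 CPM in KO and 714 and 702 CPM in WT, with a log2 fold change of -0.02 (SE 0.0576, 95% interval -0.13 to 0.09, adjusted p = 0.871). The groups overlapped, and a difference of a size like that of Cd247 lies outside the interval.

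Cd8b1, the gene of the CD8 beta chain, which reaches the surface only together with the alpha chain, showed the largest fold of the 9 tested genes. It had 35.2 and 35.9 CPM in naive KO and 15.9 and 17.3 CPM in naive WT cells (178 and 199 counts against 90 and 98), a log2 fold change of 1.10 (SE 0.17, adjusted p = 9.04e-09) that kept its call under all 11 alternatives. Cd8a stayed near 0 in the same libraries, with 2 and 3 counts in KO and 11 and 4 counts in WT, too few to be tested. Of the 5 genes of the CD8 T cell marker list, Cd8b1 was the one called; Eomes had 11.8 CPM in KO and 11.2 CPM in WT, Crtam 6.80 and 6.98, and Gzmk was at 0.

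**Figure D2:**
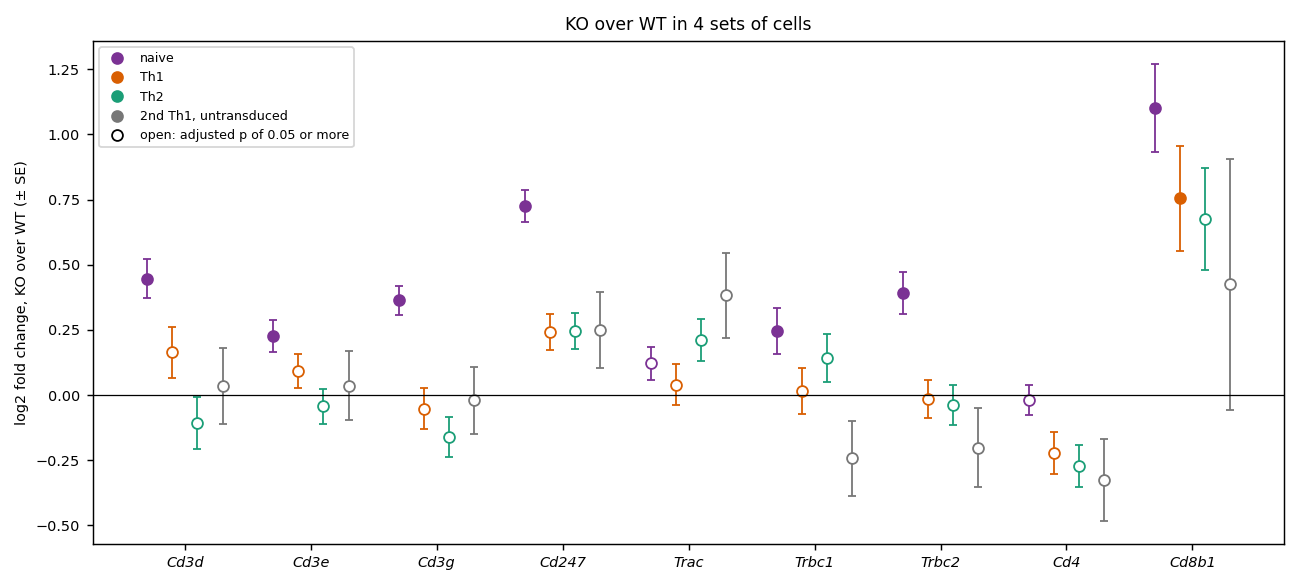
Log2 fold changes of KO over WT (vertical axis, ± SE) of the 9 genes other than Cd8a in naive, Th1, Th2 and untransduced second-experiment Th1 cells; filled points passed an adjusted p of 0.05 in edgeR's quasi-likelihood test. Filled points gather in naive cells, Cd247 lies between 0.24 and 0.25 in the 3 sets of helper cells, and Cd4 lies below 0 in each of them.

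In Th1 and Th2 cells no chain of the receptor passed the test within a fate, but Cd247 and Cd8b1 were higher and Cd4 was lower in KO cells when both fates were averaged. Of 9 genes tested, 1 was called in Th1 cells (3.66% of all 12616 genes) and none in Th2 cells (0.325% of all genes). The difference of the KO effect between Th1 and Th2 cells was called for no member and for no gene at all (0% of 12616 genes; 1225 had an unadjusted p under 0.05, and DESeq2 called 9). The average of the KO effect over both fates, a contrast of the same fit added after the data were examined, called 3 of 9 members (3.76% of all genes).

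Cd247 had 226, 211 and 201 CPM in Th1 KO libraries, against 174, 188 and 177 CPM in Th1 WT libraries. In Th2 cells it had 195, 174 and 174 CPM in KO, against 149, 156 and 153 CPM in WT. The groups did not overlap in either fate. The log2 fold change was 0.24 in Th1 cells (SE 0.0678, adjusted p = 0.0539) and 0.25 in Th2 cells (SE 0.0692, adjusted p = 0.178), neither past the threshold; the Th1 value passed with DESeq2 (adjusted p = 0.0243), in the joint fit (0.0316), with unscaled totals (0.0444) and without Th2 WT library 3 (0.0454). Averaged over both fates it was 0.24 (SE 0.0484, 95% interval 0.14 to 0.35, adjusted p = 0.00667), and this call held without any 1 library. The gap between KO and WT in Cd247 was larger in naive cells. The difference of the log2 fold changes was 0.48 against Th1 cells (SE 0.101, adjusted p = 0.00807) and 0.47 against Th2 cells (SE 0.102, adjusted p = 0.00888). In naive cells genotype goes with sex-linked RNA, and in the first cultures it does not. Sex, library set and genotype therefore cannot be told apart in these differences, here and below.

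Over all genes, 3.05% of 14029 had a gap between KO and WT that differed between naive and Th1 cells and 3.29% one that differed between naive and Th2 cells. Of the 10 members these were 1 and 3. Besides Cd247, Cd3g (0.52, SE 0.117, adjusted p = 0.0128) and Cd3d (0.55, SE 0.146, adjusted p = 0.0353) differed between naive and Th2 cells. The Cd3g value lost its call without naive KO library 1 (adjusted p = 0.0597) or naive WT library 1 (0.064). The Cd3d value lost its call without any 1 naive library (0.0805 to 0.11), without Th2 KO library 2 (0.0768) or 3 (0.0944), and without Th2 WT library 1 (0.0567). Against Th1 cells the difference was 0.41 for Cd3g (adjusted p = 0.0542) and 0.28 for Cd3d (adjusted p = 0.364). The Cd3g value passed under 9 of 22 alternatives, among them DESeq2 (0.0145), no filter (0.0045), the replicate block (0.027) and RLE scaling (0.0433). In the helper cells themselves Cd3g averaged 322 ± 26.5 CPM in Th1 KO and 334 ± 4.16 CPM in Th1 WT cells, and 333 ± 39.4 CPM in Th2 KO and 372 ± 18.6 CPM in Th2 WT cells (n = 3 each).

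Cd4 leaned the other way from Cd247. It had 404, 439 and 413 CPM in Th1 KO libraries and 454, 471 and 543 CPM in Th1 WT libraries, which did not overlap. In Th2 cells it had 460, 512 and 479 CPM in KO and 617, 508 and 627 CPM in WT, with 1 WT library inside the KO range. The log2 fold changes were -0.22 (SE 0.0811, adjusted p = 0.152) and -0.27 (SE 0.0812, adjusted p = 0.206). With no filter both passed (adjusted p = 0.0409 and 0.0168), and without Th2 WT library 2 the Th2 value passed (0.0413). Averaged over both fates its log2 fold change was -0.25 (SE 0.0574, 95% interval -0.37 to -0.13, adjusted p = 0.018). Cd4 lost this call narrowly without Th2 KO library 1 (adjusted p = 0.0504) or 3 (0.051) and without Th2 WT library 1 (0.0615). The difference of the KO effect on Cd4 between naive and Th1 cells was 0.20 (adjusted p = 0.443) and between naive and Th2 cells 0.25 (adjusted p = 0.306), so a KO effect on Cd4 particular to helper cells was not shown.

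Cd8b1 had 9.08, 5.95 and 7.45 CPM in Th1 KO libraries and 4.43, 5.30 and 3.61 CPM in Th1 WT libraries. Its log2 fold change was 0.75 (SE 0.202, adjusted p = 0.0422). The call was lost without Th1 KO library 1 (adjusted p = 0.203) or 3 (0.0902), without Th1 WT library 1 (0.145) or 3 (0.133), without Th2 KO library 1 (0.058), 2 (0.0595) or 3 (0.0584) or Th2 WT library 1 (0.0577), and with DESeq2 (0.0564). In Th2 cells it had 9.98, 9.30 and 10.6 CPM in KO and 6.14, 7.41 and 5.16 CPM in WT (0.68, SE 0.196, adjusted p = 0.194). KO libraries lay above WT libraries in both fates, and averaged over the fates the log2 fold change was 0.72 (SE 0.141, adjusted p = 0.00636), a call that held without any 1 library. Cd8a again had few counts, 3 to 7 in the 6 KO libraries and 1 to 13 in the 6 WT libraries.

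Markers of gamma-delta T cells, which use another receptor with the same CD3 chains, moved with the genotype in Th1 cells. The 5 markers summed to 6.66 ± 2.91 CPM in Th1 KO and 24.9 ± 6.63 CPM in Th1 WT cells, and to 3.27 ± 1.44 CPM in Th2 KO and 10.2 ± 3.15 CPM in Th2 WT cells (n = 3 each). In Th1 cells 4 of the 5 were tested and all 4 fell, among them Trdc, the delta constant gene, with 2.59 ± 1.25 CPM in KO and 10.7 ± 4.12 CPM in WT (log2 fold change -2.07, SE 0.33, adjusted p = 0.00155). Their part in the values of Cd247, Cd4 and Cd8b1 was not tested. The thymocyte list, almost all of it Dntt, summed to 25.9 ± 2.30 CPM in Th1 KO and 16.1 ± 6.16 CPM in Th1 WT cells, and its 1 tested gene was not called. The gamma-delta list also summed to less in KO cells of the other sets, with 6.23 CPM in naive KO and 12.4 CPM in naive WT cells, 2.24 CPM in untransduced KO and 10.3 CPM in untransduced WT cells, and 2.06 CPM in Ets1-RV KO and 14.1 CPM in EV WT cells, where its part was not tested either. For scale, Trac had 148 ± 11.2 CPM in Th1 KO and 144 ± 13.2 CPM in Th1 WT cells. Cd8b1 had 7.50 ± 1.57 CPM in Th1 KO and 4.44 ± 0.842 CPM in Th1 WT cells.

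**Figure D3:**
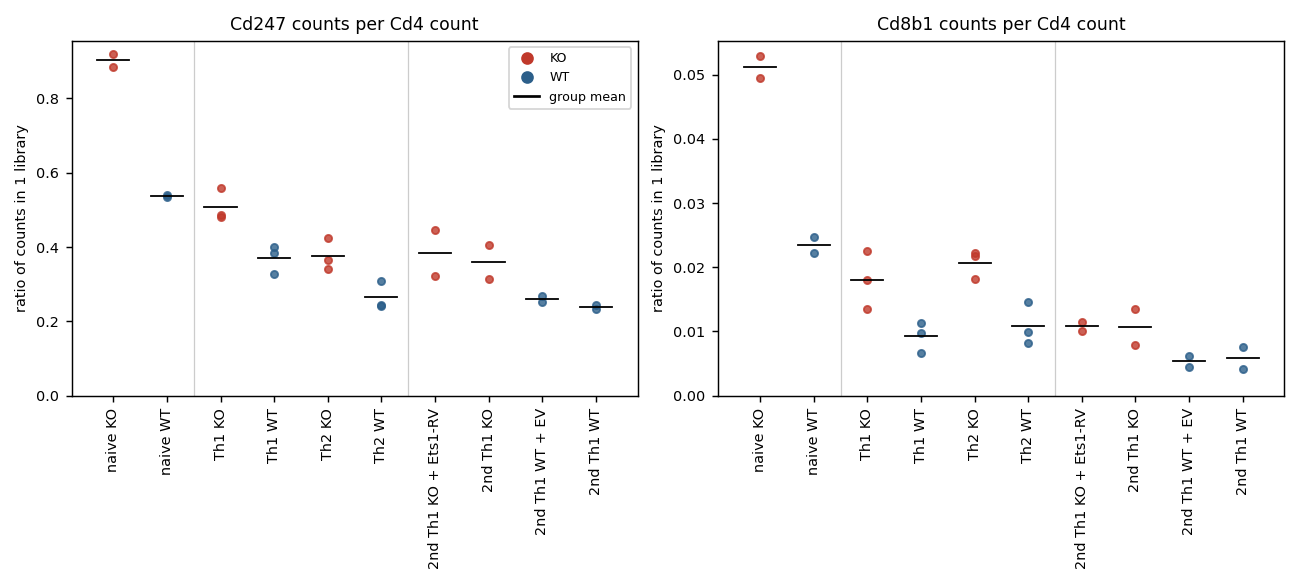
Counts of Cd247 (left) and of Cd8b1 (right) per count of Cd4 in the same library (vertical axes, from 0), for the 10 groups, with KO in red, WT in blue and bars for means. Cd247 per Cd4 is higher in every KO library than in any WT library of the same set, as in Th1 cells with 0.481 to 0.560 in KO and 0.326 to 0.400 in WT. Mean Cd4 is lower in KO in the helper sets, which also raises this ratio.

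The ratio of Cd247 to Cd4 within a library, which no scaling of the library changes, was higher in KO cells in every set. In Th1 cells it was 0.560, 0.481 and 0.487 in KO and 0.384, 0.400 and 0.326 in WT. In Th2 cells it was 0.425, 0.341 and 0.364 in KO and 0.242, 0.307 and 0.245 in WT. In the second Th1 experiment it was 0.313 and 0.407 in untransduced KO and 0.321 and 0.446 in Ets1-RV KO cells, against 0.233 and 0.244 in untransduced WT and 0.269 and 0.253 in EV WT cells. KO and WT values did not overlap within any set. This ratio was chosen after its values were seen and is given as a description. Mean Cd4 was lower in KO in each set of helper cells, so the ratio there reflects both genes. Within B number 1 of the untransduced cells the log2 difference was 0.07 for Cd247 and -0.36 for Cd4. Within B number 2 it was 0.44 and -0.30. Other ratios of Cd247 separated less. Per count of Trac, KO and WT overlapped in Th1 cells (1.31 to 1.59 in KO, 1.14 to 1.45 in WT), in Th2 cells and in the second experiment. In naive cells they did not (1.48 and 1.47 in KO, 0.952 and 0.988 in WT). Per count of Cd3e they overlapped in untransduced cells, but not in naive, Th1 or Th2 cells.

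The second Th1 experiment asks whether the KO effect recurs and what goes with the Ets1 virus in KO cells. No member was called between untransduced KO and untransduced WT cells (1.24% of all 11072 genes were called), nor in any comparison with a virus. With n = 2 and the spread of these cultures, the intervals were wide. Cd247 had 121 and 136 CPM in untransduced KO and 115 and 100 CPM in untransduced WT cells. Its log2 fold change of 0.25 (SE 0.146, 95% interval -0.06 to 0.56, adjusted p = 0.479) stood beside 0.24 and 0.25 in the first cultures; within B number 1 it was 0.07 and within B number 2 it was 0.44. Cd4 had 386 and 335 CPM in KO and 494 and 412 CPM in WT, a log2 fold change of -0.33 (SE 0.157, 95% interval -0.66 to 0.01, adjusted p = 0.368). Within B number 1 it was -0.36 and within B number 2 it was -0.30, below 0 in both. Trac had 197 and 138 CPM in KO and 125 and 134 CPM in WT (0.38, SE 0.163, adjusted p = 0.303), a difference that came mostly from B number 1 (0.66, against 0.04 in B number 2).

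In KO cells that received Ets1 by virus, Ets1 RNA was higher than in untransduced KO cells (418 ± 50.9 CPM in Ets1-RV KO and 232 ± 17.2 CPM in untransduced KO cells). The log2 fold change was 0.85 (SE 0.138, adjusted p = 0.0196, n = 2 each). No group held KO cells with the empty virus, so transduction and added Ets1 cannot be told apart in this comparison. No receptor or coreceptor gene was called in it, while 0.19% of all genes were. Cd247 had 132 and 139 CPM in Ets1-RV KO and 121 and 136 CPM in untransduced KO cells (0.08, SE 0.144, 95% interval -0.23 to 0.39, adjusted p = 0.899). Cd4 had 411 and 312 CPM in Ets1-RV KO and 386 and 335 CPM in untransduced KO cells (0.00, SE 0.156, 95% interval -0.33 to 0.33, adjusted p = 0.999). For scale, untransduced KO cells had differed from untransduced WT cells by 0.25 for Cd247 and by -0.33 for Cd4. Trbc1 had 81.0 and 75.5 CPM in Ets1-RV KO and 57.3 and 67.6 CPM in untransduced KO cells (0.34, SE 0.142, adjusted p = 0.41).

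The virus by itself left no call: between EV WT and untransduced WT cells 0% of 11072 genes were called by edgeR (268 had an unadjusted p under 0.05, and DESeq2 called 0), and the members' log2 fold changes ran between -0.30 for Cd8b1 and 0.05 for Cd3g. Between Ets1-RV KO and EV WT cells, which differ in genotype and virus together, 0.56% of genes were called and none of the 10. Cd247 had 132 and 139 CPM in Ets1-RV KO and 116 and 104 CPM in EV WT cells (0.30, SE 0.14, adjusted p = 0.516). Cd8b1 had 4.17 and 3.57 CPM in Ets1-RV KO and 1.91 and 2.57 CPM in EV WT cells (0.82, SE 0.392, adjusted p = 0.531). Neither gene's groups overlapped, but with n = 2 that was so for 7 of the 10 members. The share of all genes without overlap was not counted.

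Set against naive cells, helper cells had a lower share of RNA for nearly the whole complex in both genotypes. CPM are shares of a library, and RNA per cell was not measured. Of the 10 genes, 9 fell in KO Th1 cells against KO naive cells (36.2% of all 14029 genes were lower), 9 in KO Th2 cells (36.4%), 9 in WT Th1 cells (36.1%) and 8 in WT Th2 cells (36.6%). None rose in any of the 4. The median log2 fold change of the 10 was -1.51, -1.49, -1.10 and -1.28 in that order, against medians of all genes of 0.11, 0.09, 0.10 and 0.08. Naive and helper cells were separate sets of libraries, so culture and set cannot be told apart. Markers of other cells were also lower in cultured cells: the B cell list summed to 61.1 CPM in KO Th1 and 201 CPM in KO naive cells, and to 50.1 CPM in WT Th1 and 289 CPM in WT naive cells. The NK cell list summed to 1.20 CPM on average in KO Th1 cells and to 11.7 and 12.3 CPM in KO naive libraries. It summed to 2.38 CPM in WT Th1 cells and to 12.4 and 12.6 CPM in WT naive libraries. Most of the naive sum was Eomes, which is also on the CD8 T cell list, so it does not stand for NK cells alone. Erythroid markers were at or near 0 in both Th1 groups. The mitochondrial share of gene counts was 7.40% to 9.78% in the first cultures and 12.6% to 16.7% in naive libraries. What part these differences had in the fall of the 10 genes was not tested.

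**Figure D4:**
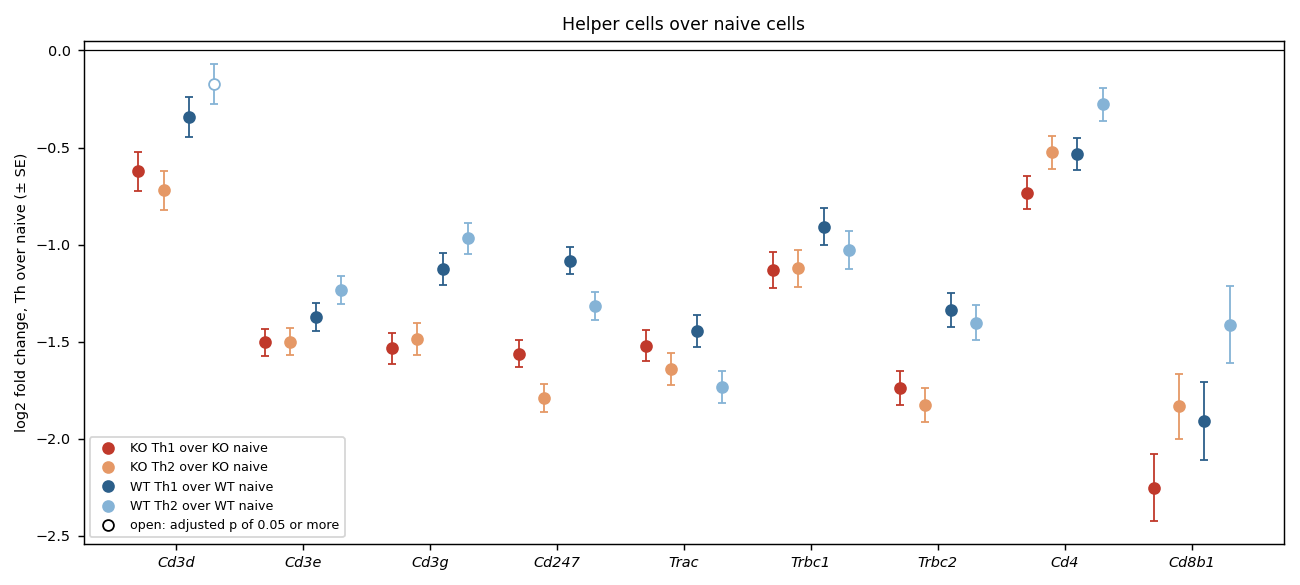
Log2 fold changes of Th1 or Th2 cells over naive cells of the same genotype (vertical axis, ± SE) of the 9 genes other than Cd8a; filled points passed an adjusted p of 0.05 in edgeR's quasi-likelihood test. Cd8b1 falls the most or nearly so, and Cd3d and Cd4 the least. Within a fate every value except that of Trac in Th2 cells is lower in KO (reds) than in WT (blues).

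The members did not fall alike. Trac had 148 ± 11.2 CPM in KO Th1 and 426 ± 0.393 CPM in KO naive cells (log2 fold change -1.52, SE 0.0812, adjusted p = 6.16e-15), and 144 ± 13.2 CPM in WT Th1 and 393 ± 11.8 CPM in WT naive cells (-1.44, SE 0.0812, adjusted p = 1.89e-14). Trbc2 fell by 1.74 in KO Th1 and by 1.34 in WT Th1 cells, and Trbc1 by 1.13 and 0.91. Cd3e had 180, 169 and 156 CPM in KO Th1 libraries, against 493 and 463 CPM in KO naive libraries, and it fell by 1.37 in WT Th1 cells. Cd3g fell by 1.54 and 1.12. Cd247 fell by 1.56 in KO Th1 cells (213 ± 12.6 CPM, against 628 ± 2.61 CPM in KO naive cells) and by 1.08 in WT Th1 cells (180 ± 7.23 CPM, against 381 ± 1.49 CPM in WT naive cells).

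Cd3d and Cd4 kept their share of the library best. Cd3d fell by 0.62 in KO Th1, by 0.72 in KO Th2 and by 0.34 in WT Th1 cells, and had a log2 fold change of -0.17 in WT Th2 cells (SE 0.104, adjusted p = 0.135). The delta chain gene thus parted from its neighbours Cd3e and Cd3g, which fell by 1.24 and 0.97 in WT Th2 cells. Cd4 fell by 0.73 in KO Th1, 0.52 in KO Th2, 0.53 in WT Th1 and 0.28 in WT Th2 cells. The WT Th2 value was lost without naive WT library 1 (adjusted p = 0.0669) and with counts taken without strand (-0.14, adjusted p = 0.137). Cd8b1 fell the most, by 2.25 in KO Th1, 1.83 in KO Th2 and 1.91 in WT Th1 cells, but by less than Trac in WT Th2 cells (1.41, against 1.74 for Trac). Cd8a had 2 to 11 counts in the naive and 1 to 13 in the helper libraries and was not called in the main fit. In WT Th2 against WT naive cells it passed without Th2 WT library 2 (log2 fold change -2.21, adjusted p = 0.0141). Without naive WT library 2 its log2 fold change was -1.88. Both values rest on few counts.

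Between the fates the counts of members called lay near the shares of all genes. Of 9 tested, 1 was called between KO Th1 and KO Th2 cells (17.5% of all genes) and 3 between WT Th1 and WT Th2 cells (29.5% of all genes; 1723 higher and 1994 lower, which became 2400 higher and 1602 lower when library totals were not scaled). Cd247 was higher in Th1 cells in both genotypes. It averaged 213 ± 12.6 CPM in KO Th1 and 181 ± 12.2 CPM in KO Th2 cells (log2 fold change 0.22, SE 0.0681, adjusted p = 0.0316), and 180 ± 7.23 CPM in WT Th1 and 153 ± 3.44 CPM in WT Th2 cells (0.22, SE 0.0689, adjusted p = 0.0197). The KO call was lost without Th1 KO library 1 (adjusted p = 0.122) or 2 (0.0771) and without Th2 KO library 2 (0.137) or 3 (0.132), and the WT call without Th1 WT library 2 (0.0778) or Th2 WT library 1 (0.0654).

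In WT cells Trac was also higher in Th1 (144 ± 13.2 CPM) than in Th2 cells (118 ± 6.98 CPM; log2 fold change 0.28, SE 0.0812, adjusted p = 0.0136). Trac lost this call without Th1 WT library 1 (adjusted p = 0.0517) or 3 (0.0607) and without Th2 WT library 2 (0.0538). Cd4 was lower in WT Th1 (489 ± 47.2 CPM) than in WT Th2 cells (584 ± 65.9 CPM; -0.27, SE 0.081, adjusted p = 0.017), and the groups overlapped. The Cd4 call was lost without Th1 WT library 1 (0.0966) or 2 (0.0615), without Th2 WT library 1 (0.0977) or 3 (0.0793), and with unscaled totals (0.0831). The 5 B cell markers that were tested were all lower in WT Th1 than in WT Th2 cells, their list summing to 50.1 ± 9.53 CPM and 118 ± 39.7 CPM. Their part in these values was not tested. In KO cells Cd4 averaged 419 ± 18.1 CPM in Th1 and 484 ± 26.1 CPM in Th2 and was not called. Its log2 fold change ran from -0.25 to -0.18 over 18 alternatives, and 3 of them passed.

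Genes that act next to the receptor were read from 4 lists. In naive KO against naive WT cells, 3 of the 18 genes of signal transmission rose and 3 fell, with a median log2 fold change of 0.03, where 17.7% of all genes were called and 8.75% were higher. Themis, an adaptor needed for T cell development, rose to 251 ± 29.4 CPM in KO, against 183 ± 6.14 CPM in WT (0.46, SE 0.0719, adjusted p = 1.15e-08). The kinase gene Fyn fell to 300 ± 13.1 CPM in KO, against 398 ± 9.79 CPM in WT (-0.40, SE 0.0638, adjusted p = 2.3e-08), and Vav1, an exchange factor downstream of the receptor, fell by 0.27.

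Of 12 brakes and adaptors at the receptor, 3 rose and 1 fell in naive KO cells, beside 17.7% of all genes called and 8.75% higher. Trat1, which encodes a membrane adaptor that binds the receptor complex, rose to 63.1 ± 3.93 CPM in KO, against 42.6 ± 2.83 CPM in WT (log2 fold change 0.57, SE 0.121, adjusted p = 5.84e-05). The phosphatase gene Ptpn22 rose by 0.30 and the ubiquitin ligase gene Cblb by 0.21, while its relative Cbl fell by 0.36. Of 10 accessory surface receptors, 4 rose and 3 fell against the same shares, among them Cd6 with 384 ± 6.53 CPM in KO and 257 ± 10.0 CPM in WT (0.59, SE 0.0652, adjusted p = 4.44e-16), Cd2 (0.38), Cd27 (0.33) and the costimulator gene Icos (-0.44).

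Of 16 transcription factor genes that act on coreceptor genes or on T cell lineage choice, 6 rose and 2 fell in naive KO cells, where 17.7% of all genes were called and 8.75% were higher. Ets1, the target, fell to 724 ± 22.1 CPM in KO, against 1871 ± 0.594 CPM in WT (log2 fold change -1.37, SE 0.0551, adjusted p = 2.06e-86). Runx3, which is needed to silence Cd4 and to express CD8 genes in the CD8 lineage, fell to 72.6 ± 3.35 CPM in KO, against 98.5 ± 3.18 CPM in WT (-0.44, SE 0.0997, adjusted p = 0.000235). Myb rose by 0.44 and Tox, which is needed for CD4 lineage development in the thymus, by 0.42.

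In cultured KO cells the shares of all genes called were 3.66% in Th1, 0.325% in Th2 and 1.24% in untransduced cells. In Th1 cells 1 of 18 signal genes rose (Fyb, 0.28) and 1 fell (Fyn, -0.35). Of the brakes Cblb fell, to 101 ± 24.4 CPM in KO, against 171 ± 19.3 CPM in WT (log2 fold change -0.76, SE 0.13, adjusted p = 0.00292). Of the accessory receptors Cd5 rose (0.31) and Thy1 fell (-0.45), and of the lineage factors Gata3 rose (0.84). Fyn had also fallen in naive KO cells. In Th2 cells 1 gene of the 4 lists was called, Ubash3b, a phosphatase gene of receptor signalling, with 37.6 ± 2.80 CPM in KO and 23.1 ± 0.330 CPM in WT (0.70, SE 0.0937, adjusted p = 0.00112). In untransduced cells of the second experiment Thy1 fell again, to 200 ± 13.9 CPM in KO, against 332 ± 4.47 CPM in WT (-0.73, SE 0.134, adjusted p = 0.0138).

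Genes next to the receptor were also mostly lower in helper than in naive cells, in comparisons where 36.1% to 36.6% of all genes were lower. Of the 18 signal genes 16 fell and 2 rose in KO Th1 and likewise in WT Th1 cells, and 13 fell and 2 rose in KO Th2 and in WT Th2 cells. Prkcq, a kinase gene of the synapse, fell by 2.40 in KO Th1 and by 2.24 in WT Th1 cells, and Trat1 fell by 4.32 in WT Th1 cells. Thy1 was among the genes that rose, with 438 ± 19.3 CPM in WT Th1 and 300 ± 9.15 CPM in WT naive cells (log2 fold change 0.55, SE 0.0709, adjusted p = 1.61e-07). RNA from joining segments, which recombination places between the variable and constant parts, fell in 43 of 44 tested in KO Th1 and in all 44 in WT Th1 cells, with median log2 fold changes of -3.65 and -4.01. These medians lie far below the value of Trac in the same cells.

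Among the 10 groups Cd3e and Cd3g followed nearly the same course, with a Pearson correlation of mean log2 CPM of 0.99. It was 0.95 between Cd247 and each of these. Cd3d had 0.94 with Cd247, 0.90 with Cd3g and 0.85 with Cd3e. Cd4 had 0.89 with Cd3g, 0.85 with Cd3d, 0.84 with Cd3e and 0.79 with Cd247. These values describe 10 groups that share the contrast of naive and cultured cells, and the second experiment was scaled on its own. Among 7729 protein-coding genes with a mean of at least 10 CPM, the courses most like that of Cd3e were those of Epc1, Scaf8 and Ddx5 (r = 0.998, 0.997 and 0.996). For Cd247 they were Aqr, Zdhhc20 and Crnkl1 (0.989, 0.989 and 0.988), and for Trac they were Ssbp2, S1pr1 and Ikzf1 (0.995, 0.993 and 0.992). Cd4 was followed less closely, by Myo18a, Kif13b and Bicdl1 (0.976, 0.971 and 0.970), and Cd8b1 by Mbd2, Dpp4 and Tank (0.994, 0.993 and 0.986).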

How the data were processed

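The authors deposited 1 table of raw counts per gene for each library, with STAR 2.5.0a and the build GRCm38 named in the submitters' processing notes. Total RNA went into a stranded kit, per the labels' protocols. The strand with 93.3% to 95.2% of stranded gene counts was used. Summary lines that name no gene held 63.6% to 76.0% of the tabulated reads and were left out. Symbols came from GENCODE M21 (45143 of 45706 identifiers). The 10 genes and all lists were chosen with earlier results of these data known.

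All tests are edgeR's quasi-likelihood test (edgeR 4.0.16, R 4.3.3), with TMM scaling, the filterByExpr filter, p-values adjusted by Benjamini-Hochberg across every gene tested, and a threshold of 0.05. The naive set had a fit of its own, the 12 libraries of the first Th1 and Th2 cultures another, the second experiment its own with libraries of 1 B number summed, and comparisons of helper with naive cells came from a joint fit of 16 libraries. The scripts were tested on simulated counts. DESeq2 1.42.0 and the other alternatives are given in the closing section. Of each list, up to 4 called genes with the largest fold and at least 5 CPM in 1 group are named, except for a result that is not reported here. Intervals are 95% intervals of the fit. No 2 libraries were alike within sampling noise. The tables carry no molecular identifiers.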

Additional observations from a re-analysis of the deposited data

Results flagged for a closer look

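The gap between KO and WT differed between naive and helper cells, by a test of the difference itself, for 3 members. Cd247 differed between naive and Th1 cells (0.48 on the log2 scale, adjusted p = 0.00807) and between naive and Th2 cells (0.47, adjusted p = 0.00888), and both values kept their call under all 22 alternatives. Cd3g (0.52, adjusted p = 0.0128) and Cd3d (0.55, adjusted p = 0.0353) differed between naive and Th2 cells, and lost the call under 2 and 7 of the 22 alternatives in that order. Mean Cd247 was higher in KO than in WT cells in every set, by more in naive cells. It passed the main test within no single set of helper cells, though the average over Th1 and Th2 cells did. In Th2 cells Cd3g averaged 333 CPM in KO and 372 CPM in WT, and Cd3d 123 CPM in KO and 132 CPM in WT, so the sign of these differences was opposite to that in naive cells. Sex-linked RNA moved with genotype in the naive set but not in the first Th1 and Th2 cultures. Sex, library set and genotype therefore cannot be told apart in these differences. Markers of B, erythroid and thymic cells also moved with genotype in the naive set, and their part was not tested.

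Trbc1 had more of its stranded counts on the opposite strand than any other member with at least 20 counts in every library: a median of 11.9% over 36 libraries, and 6.96% to 24.7% in single ones, against a median of 0.599% for Trbc2. The strand opposite to the gene was not used in any comparison.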

How the results depend on the processing

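Of 2994 values of the 10 genes under alternatives, 2919 kept their side of the threshold, 51 lost a call, 24 gained one and 0 reversed a call, while 72 values that were not called changed sign; 12 of 54 called pairs of gene and comparison lost the call under at least 1 alternative. The cause of these changes was not tested. Counts of genes called over all genes moved more. Testing genes with no filter on low counts gave 835 calls for Th1 KO against WT (462 as reported), 224 for Th2 (41), 213 for the difference between the fates (0), 807 for the mean of both fates (474), 416 for untransduced KO against WT (137), 17 for EV WT against untransduced WT (0), 212 for Ets1-RV KO against untransduced KO (21) and 257 for Ets1-RV KO against EV WT (62). DESeq2 gave 710 in naive cells (1987), 76 in Th2 cells, 9 for the difference between the fates and 32 for Ets1-RV KO against untransduced KO. The joint fit gave 68 in Th2 cells. Unscaled totals gave 47, 4 and 12, and libraries left unsummed, which counts libraries of 1 B number as separate, gave 266, 126 and 441, for untransduced KO against WT, Ets1-RV KO against untransduced KO and Ets1-RV KO against EV WT.

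A replicate block by number gave 63 calls in Th2 cells, and 212, 45 and 95 in those 3 comparisons of the second experiment. It called no member in the second experiment. The labels do not say that the numbers pair libraries. In the second experiment libraries of B number 1 had Y-linked RNA and those of B number 2 had Xist RNA in all 4 groups, so the B number goes with sex-linked RNA there. Deviations of same-numbered libraries correlated between -0.07 and 0.20 in the first cultures, at -0.05 in naive cells and between 0.05 and 0.30 in the second experiment.

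Leaving out 1 library at a time gave 399 to 1219 calls in naive cells, 176 to 600 for Th1 KO against WT, 14 to 68 for Th2, 0 to 3 for the difference between the fates, 290 to 521 for their mean, 1380 to 2413 for KO Th1 against KO Th2, 22 to 188 for untransduced KO against WT, 0 to 5 for EV WT against untransduced WT, 0 to 55 for Ets1-RV KO against untransduced KO, 10 to 91 for Ets1-RV KO against EV WT, and 170 to 520 and 190 to 545 for the naive effect against the Th1 and the Th2 effect. Where this left 1 library in a group, its spread was taken from the other groups. Depth limits Cd8a, with at most 19 counts in a library, and Cd8b1 in the second experiment.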

Other observations

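The 8 libraries whose title and transduction label name different viruses had levels within or near the range of the 12 libraries of that Th1 experiment that have a group, as raw CPM. Gm27162 had 0 to 17 counts in the 8 and 0 to 43 in the 12. Both therefore pool libraries with and without it, and the ranges and medians below do not speak to genotype. Cd247 ran between 101 and 151 CPM with a median of 119 in the 8, and between 92.1 and 144 with a median of 127 in the 12. Cd4 ran between 301 and 410 CPM with a median of 355 in the 8, and between 313 and 538 with a median of 381 in the 12. Cd3e ran between 127 and 175 CPM in the 8 and between 125 and 169 in the 12, and Cd8b1 between 1.65 and 4.96 and between 1.26 and 4.41. Cd8a reached 3.46 CPM in the 8 and 2.78 CPM in the 12.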
